A study of Mus musculus with 6 samples.

Results

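Mouse kidney cells carrying the RNA of Aqp2, the water channel of the collecting duct, were followed through 3 ways of taking the tissue apart. Cells were selected on their counts of unique molecular identifiers (UMIs), the random tags that let each captured RNA molecule be counted once. A cell was kept with 200 to 3000 detected genes and at most 50% of its UMIs from mitochondrially encoded genes. It was taken as Aqp2-positive with at least 3 UMIs of Aqp2, at most 1 UMI each of Slc12a3 and Slc12a1, and no UMI of Ptprc or Pecam1. These 4 genes mark the distal convoluted tubule, the thick ascending limb, leukocytes and endothelium. The rule found 244 cells among 24212 kept kidney cells, or 1.01%, in a series of 58561 cells, of which 34034 came from kidney. Because the rule used the measured counts of these 5 genes, their levels are a description and support nothing here.

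The principal cell is the epithelial cell of the collecting duct that takes up water through aquaporins under vasopressin and sodium through the epithelial sodium channel under aldosterone. It secretes potassium in return, and the enzyme made from Hsd11b2 inactivates glucocorticoids so that aldosterone can occupy its receptor. Upstream of the collecting duct, the connecting tubule has cells of a similar kind that also handle calcium through calbindin proteins. Acid and base are handled by neighbouring intercalated cells, which carry a proton pump.

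The 3 kidney libraries came from 12-week-old male C57BL/6 mice, with 1 library per condition, and the study's reporting summary states that tissue of the same mouse served all conditions of a replicate. In the control, minced kidney was digested with type I collagenase for 60 min with agitation, then pipetted, vortexed and strained. On the microfluidic platform, the same enzyme was circulated over minced tissue in a digestion device, and the suspension passed once through an integrated dissociation and filter device, with cells collected at a 15 min and at a 60 min interval. In this interval format the suspension is drawn off, fresh enzyme is added and digestion goes on, so cells of the 60 min library came from tissue that had already given up the 15 min cells. All suspensions were treated with DNase and red cell lysis buffer and sorted for live, SytoxBlue-negative cells before droplet capture. The comparisons ask how the composition and expression of these cells differed between the platform intervals and the control. A single library per condition leaves no spread between replicates, so differences were not tested and every interval given is a 95% counting interval. The 15 min and 60 min comparisons share the control library. Intervals were exact binomial (Clopper-Pearson) for shares, exact Poisson for levels, exact conditional binomial for ratios of levels and log-scale binomial for ratios of shares. They do not cover spread between cells or animals.

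Members held 463637 UMIs in the control, 8897 in the 15 min library and 657542 in the 60 min library. The median member had 3717 UMIs and 1274 genes in the control, 765 UMIs and 521 genes at 15 min, and 4618.5 UMIs and 1582.5 genes at 60 min. Mitochondrially encoded UMIs took a median of 27.4, 15.8 and 23.4%. Levels are therefore given as CPM, the UMIs of a gene summed over the members per 1000000 nuclear-encoded UMIs of the same cells, which numbered 336800, 6886 and 493867.

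Cell barcodes shared between the libraries touched these cells unevenly. In the 15 min library, 6 of the 7 members (85.7%) had a barcode that was also a cell in another kidney library, against 1.64% of all kept cells of that library. Only 2 of the 103 control members (1.94%) and 4 of the 134 members at 60 min (2.99%) did. For 5 of the 6, the same barcode was a cell over the gene limit in the control or 60 min library, with 51195 to 94990 UMIs and 216 to 806 UMIs of Aqp2. The sixth, with 667 UMIs, shared its barcode with a 60 min member of 872 UMIs. The part that shared barcodes have in the 15 min values was not tested. The share, the count of genes past 2-fold and the immediate early ratio are given with and without these cells. The 15 min levels in CPM include them. Over all libraries 12 members shared a barcode and 232 did not.

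Aqp2-positive cells were scarce at 15 min, and their 60 min ratio to the control share varied with the base and the limits used. They made up 103 of 5886 kept cells in the control (1.75%, 1.43 to 2.12%), 7 of 8390 at 15 min (0.0834%, 0.0336 to 0.172%) and 134 of 9936 at 60 min (1.35%, 1.13 to 1.60%). The control share was 21.0 times the 15 min share (9.76 to 45.1). The 60 min share was 0.77 times the control share (0.597 to 0.994), an interval that ends just under 1. With only the lower limit of 200 genes kept, it was 0.903 times (0.736 to 1.11). With an Aqp2 limit of at least 2 UMIs, 5 UMIs or 5 per 10000 UMIs, it was 0.839, 0.802 and 0.868 times. The intervals of all these alternatives included 1. Without the shared barcodes, 1 of 8252 cells at 15 min stood against 101 of 5824 in the control, a ratio of 0.00699 (0.000975 to 0.0501).

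Proximal tubule cells, taken as cells with at least 3 UMIs of the phosphate transporter gene Slc34a1, filled 42.7% of the control, 83.5% of the 15 min library and 25.7% of the 60 min library, so shares of all kept cells move with that class. With all kept cells of at least 3 UMIs of Slc34a1 or at least 20 UMIs of Kap, another proximal tubule gene, left out, Aqp2-positive cells were 99 of 2931 in the control, 7 of 1164 at 15 min and 127 of 6910 at 60 min. The ratios to control on that base were 0.178 (0.083 to 0.382) at 15 min and 0.544 (0.420 to 0.705) at 60 min.

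Other distal segments were set beside them by the same kind of rule, using at least 3 UMIs of Slc12a1 for the thick ascending limb, Slc12a3 for the distal convoluted tubule and the proton pump subunit gene Atp6v1g3 for intercalated cells. At 15 min the ratio to the control share was 0.634 (0.455 to 0.883) for the thick ascending limb, 0.489 (0.307 to 0.779) for the distal convoluted tubule and 0.365 (0.226 to 0.592) for intercalated cells, all above the 0.0477 (0.0222 to 0.102) of the Aqp2-positive cells. At 60 min the thick ascending limb reached 2.16 times its control share (1.67 to 2.79) and the distal convoluted tubule 1.72 times (1.22 to 2.43). Intercalated cells, the neighbours of principal cells, stood at 0.617 times (0.416 to 0.916), nearest to the Aqp2-positive cells. As a share of the 4 distal classes together, Aqp2-positive cells were 103 of 267 (38.6%) in the control, 7 of 128 (5.47%) at 15 min and 134 of 575 (23.3%) at 60 min. The ratio to control on this base was 0.142 (0.0679 to 0.296) at 15 min and 0.604 (0.489 to 0.747) at 60 min, and 5 of the 25 intercalated cells at 15 min also shared a barcode.

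**Figure D1:**
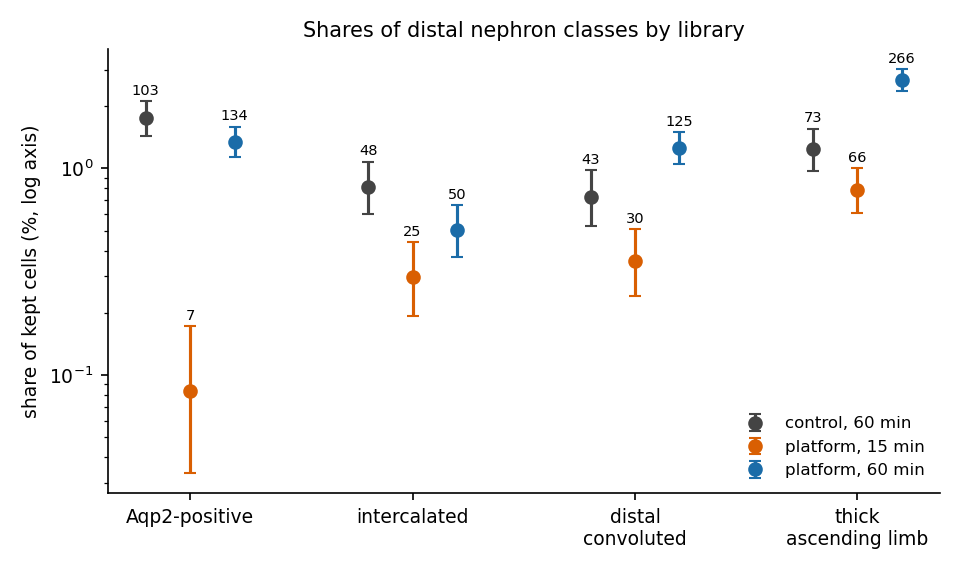
Share of kept cells (percent, log axis) in each of 4 distal classes, by library; points are shares and bars 95% exact binomial counting intervals. The Aqp2-positive cells are at 1.75, 0.0834 and 1.35% in the control, 15 min and 60 min libraries, and their 15 min point lies farthest below its control.

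Hsd11b2 was not used by the rule, but it was given with the rule as a marker, so it is no independent check. It was detected in 98.0% of the 244 members, at a median depth of 4153.5 UMIs per cell, and in 10.6% of intercalated cells, 5.56% of distal convoluted tubule cells, 1.73% of thick ascending limb cells and 0.513% of proximal tubule cells, whose median depths were 5502, 4341, 4496 and 6940.5 UMIs. Its level was 5058 CPM over all members and 12.4 CPM over the other kept cells. Close to the limit, the 43 cells with 2 UMIs of Aqp2 held Hsd11b2 in 88.4% of cells, and the 30 cells with 3 UMIs held it in 93.3%. The 103 cells with 1 Aqp2 UMI held it in 28.2%, and the 14846 cells that met the remaining limits with none held it in 1.17%. The limit of 3 therefore left out cells with the same gene, and 10, 7 and 26 such cells with 2 UMIs were in the control, 15 min and 60 min libraries.

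The upper limit on genes removed more. A further 37 control cells, 2 cells at 15 min and 70 cells at 60 min met all other parts of the rule but had over 3000 genes, with median depths of 12935, 34195.5 and 15233 UMIs. Calb1, S100g and Klk1, genes of calcium handling and of kallikrein that are broad in the connecting tubule, were also strong in the members. Calb1, encoding calbindin, was detected in 85.4% of control and 94.8% of 60 min members. The rule thus does not separate collecting duct from connecting tubule, and the cells are called Aqp2-positive rather than principal cells.

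Against all other kept kidney cells, 1274 of 3530 genes of at least 50 CPM in the members were at least 2-fold higher (36.1%), the background for the names that follow. The 20 highest ratios, chosen by size from the same cells, were led by Aqp2, whose ratio of 1048 the rule fixes. Besides Hsd11b2 at 406-fold, they included subunits of the sodium channel (Scnn1b at 290-fold and Scnn1g at 254-fold) and the vasopressin receptor gene Avpr2 at 249-fold. Fxyd4, a regulator of the sodium pump, was at 210-fold, and the ammonia transporter gene Rhcg at 165-fold. Ptges, encoding a prostaglandin E synthase, stood at 170-fold and the prostaglandin E receptor gene Ptger1 at 150-fold. Less familiar genes were as high, with the collagen gene Col26a1 at 713-fold, the phosphodiesterase gene Pde1c at 527-fold, the potassium channel subunit gene Kcne1 at 510-fold, and Mcoln3, Pappa, Atp2b2, Bmpr1b, Kif26b, Defb2 and A930017K11Rik also in the list.

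Set against the nearest classes, further genes came forward. Against intercalated cells, the potassium channel gene Kcnj1 was at 811 CPM in the members and 3 UMIs in all, and Apela, which encodes a small secreted peptide, was at least 108-fold higher on a floor of 3 UMIs. Against the thick ascending limb, Scnn1b was at least 460-fold higher, with no UMI in 405 cells. Rhbg and Rhcg, both ammonia transporter genes, separated members from the thick ascending limb and distal convoluted tubule but less from intercalated cells, with 911 CPM of Rhbg in members, 0.697, 7.11 and 727 CPM in the 3 classes. Npnt, the gene of a basement membrane protein, was at 789 CPM in members and 7.45 CPM in intercalated cells.

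**Figure D2:**
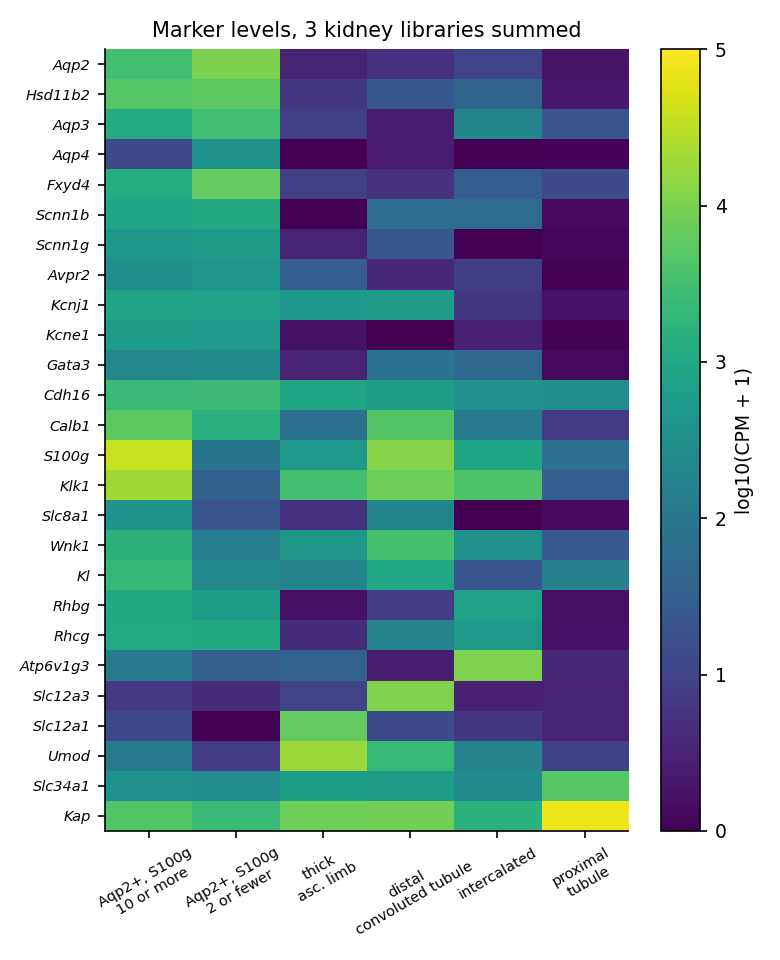
Levels, as log10(CPM + 1), of marker genes (rows) in the Aqp2-positive cells split by S100g and in 4 other kidney classes (columns). Brighter colours are higher. Aqp2 and Hsd11b2 are bright in both Aqp2-positive columns, Calb1 and S100g are also bright in the distal convoluted tubule, and S100g and Klk1 are dark in the Aqp2-positive column with 2 or fewer S100g UMIs.

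The members were far from uniform. After each cell of at least 1000 UMIs was thinned to 1000, leaving 229 cells and dropping 15, the variance over the mean had a median of 1.14 over 539 genes. The 10 highest were Malat1 at 51.0, Kap at 47.3, Klk1 at 45.1, S100g at 29.7, Gm42418 at 23.0, Gpx3 at 6.93, Aqp2 at 6.73, Fxyd2 at 6.05, Fxyd4 at 5.39 and Gm26917 at 5.04. Malat1 is a nuclear RNA, Gm42418 and Gm26917 are annotated transcripts of no stated function, and Kap and Gpx3 are proximal tubule genes. S100g, Klk1, Aqp2 and Fxyd4 are genes of the distal tubule itself.

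S100g, encoding the small calcium-binding protein calbindin-D9k, split the members into 2 sets. Its count per cell was 0 in 73 cells, 1 to 2 in 21, 3 to 9 in 8, 10 to 29 in 19, 30 to 99 in 58, 100 to 299 in 49 and 300 to 635 in 16. Cells with at least 10 UMIs (S100g-high) and with at most 2 (S100g-low) were therefore set apart, limits chosen after the values were seen. The control held 61 S100g-high and 38 S100g-low cells, the 15 min library 1 and 6, and the 60 min library 80 and 50. S100g-high cells were 59.2% of control members (49.1 to 68.8%) and 59.7% of 60 min members (50.9 to 68.1%), so their share was close in both. S100g-low cells had 86.0 CPM of S100g, near the 64.6 CPM of proximal tubule cells, and 22.3% of them had a UMI of it, against 18.2% of proximal tubule cells. The limit of at most 2 UMIs keeps the S100g-low values low by construction. Median depth was 3776 UMIs in S100g-high and 3071.5 in S100g-low control cells, and 4618.5 and 4874 at 60 min.

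**Figure D3:**
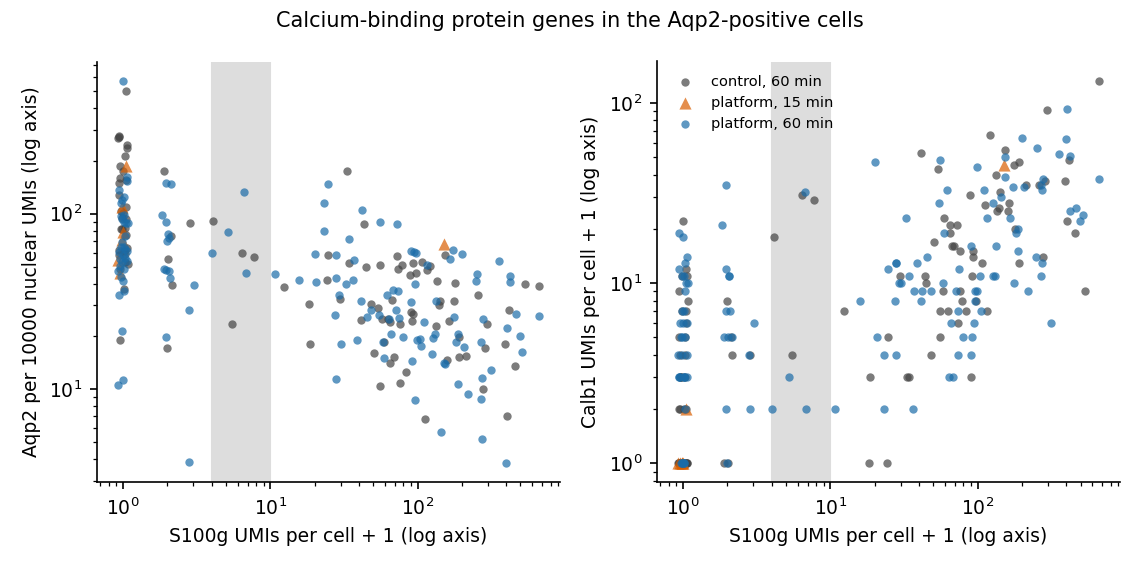
Each point is 1 Aqp2-positive cell; the x axes give S100g UMIs plus 1 (log), the y axes Aqp2 per 10000 nuclear-encoded UMIs (log, left) and Calb1 UMIs plus 1 (log, right), colours the libraries, and the grey band the 8 cells between the sets. The S100g-low cells reach higher Aqp2 and lower Calb1 than the S100g-high cells, in the control and at 60 min.

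The sets were compared within each of the control and 60 min libraries over the 1906 genes with enough UMIs in both, as a description, since the sets were cut from the same cells. At least 3-fold higher in S100g-high cells of both libraries were 18 genes (0.944%), and at most 1/3 in both were 16 genes (0.839%). Slc8a1, encoding the sodium-calcium exchanger, was at 477 against 8.94 CPM in the control and 325 against 28.6 CPM at 60 min. The vitamin D receptor gene Vdr stood at 515 against 62.6 and 521 against 91.5 CPM. Kl, encoding klotho, the FGF23 co-receptor, was at 1965 against 286 and 2324 against 177 CPM.

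The kinase gene Wnk1, a regulator of distal salt transport, was 6.49 times as high in S100g-high control cells and 18.8 times at 60 min. The kallikrein gene Klk1 was at 12546 against 26.8 CPM in the control and 23529 against 40.0 CPM at 60 min. It was not particular to S100g-high cells, with 3331 CPM in the thick ascending limb, 8038 in the distal convoluted tubule and 4021 in intercalated cells, and the S100g-low cells, at 34.4 CPM over the libraries, stood near the 29.8 CPM of proximal tubule cells. Osteopontin, from Spp1, was 6.25 and 10.1 times as high, and clusterin, from Clu, 12.1 and 3.82 times. Ly6a, Kng2, Serpinb1a, Emx1, Hhatl, Tmem65, Tmem116, Pgam2, Slc2a9 and Gm26917 complete the 18 with S100g itself.

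Water channel genes were higher in S100g-low cells. Aqp4, the basolateral water channel gene, was at 697 CPM in S100g-low and 14.3 CPM in S100g-high control cells, and at 166 and 6.51 CPM at 60 min. Fxyd4 was at 8258 against 1231 CPM in the control and 4886 against 1243 CPM at 60 min. Aqp2 itself was at 13871 against 3010 CPM in the control and 8095 against 2988 CPM at 60 min, and Aqp3, another basolateral water channel gene, was at 3128 against 1374 and 3026 against 1032 CPM. Hsd11b2 was nearly level, at 5935 against 4546 CPM in the control and 5154 against 4885 CPM at 60 min.

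The other genes at most 1/3 in S100g-high cells of both libraries included the immediate early genes Jun, Egr1 and Zfp36, the stress-induced cytokine gene Gdf15, and Gsta3, Gstm2 and Adh1 of detoxification. S100a11, Actn1, Dsp, Btc, Mcoln3, Pappa and Hoxb9 were also there. Calb1 was detected in 98.6% of S100g-high and 73.4% of S100g-low cells. It cannot be ranked against S100g as a divider, because the sets were cut on S100g.

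Between the 60 min platform interval and the control, the members' expression was close. Of 4612 genes with at least 30 UMIs over both libraries, 143 (3.1%) differed at least 2-fold, 92 upward (1.99%) and 51 downward (1.11%), and the median log2 ratio was -0.02. Median depth was higher at 60 min (4618.5 against 3717 UMIs).

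Of the 12 principal cell markers listed, 11 were compared between the 60 min libraries, none was at least 2-fold higher and 1 was at most 0.5. Without Aqp2, which the rule used, the remaining 11 markers summed to a ratio of 0.871 (0.839 to 0.904), and the 10 of them compared had a median ratio of 0.83. Aqp2 was at 6799 CPM in the control library, 8423 at 15 min and 4967 at 60 min, a 60 min ratio of 0.73 (0.69 to 0.77) for a gene the rule used. Aqp3 was at 1960, 2178 and 1808 CPM, with a ratio of 0.92 (0.83 to 1.02). Aqp4, the 1 gene past 2-fold, was at 240, 436 and 64.8 CPM, a ratio of 0.27 (0.17 to 0.41) that was 0.44 with cells over the gene limit included, and was found in 14 control and 15 cells at 60 min. The differences were not alike in the S100g sets.

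Within S100g-high cells the Aqp2 level was 0.99 of the control level (0.90 to 1.10), and within S100g-low cells 0.58 (0.54 to 0.63). Fxyd4, at 3649, 5664 and 2578 CPM over the 3 libraries, followed the same course, with ratios of 1.01 (0.86 to 1.19) in S100g-high and 0.59 (0.54 to 0.65) in S100g-low cells. Aqp3 ran the other way, at 0.75 (0.64 to 0.88) in S100g-high and 0.97 (0.84 to 1.11) in S100g-low cells. Whether the ratios differ between the sets was not tested. S100g-low control cells were shallower than those at 60 min, and the part of depth was not tested. Single S100g-low control cells with 104, 106, 126, 131, 133, 135 and 207 Aqp2 UMIs made up most of that set's 1552. At 60 min the highest S100g-low cell held 291 of 1415. The Aqp2 ratio without such cells was not computed. In the cells over the gene limit the Aqp2 level was 3866 CPM in the control and 3868 at 60 min. With these cells included, the Aqp2 ratio was 0.82 and the Fxyd4 ratio 0.88.

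Sodium channel and aldosterone genes were nearly level. Of 14 listed, 11 were compared and none passed 2-fold, with a median ratio of 0.89 and a summed ratio of 0.963 (0.920 to 1.01). Hsd11b2 was at 5095, 6825 and 5007 CPM, and its 60 min ratio was 0.98 (0.92 to 1.05). The sodium channel subunit genes were at 534, 145 and 601 CPM for Scnn1a, 1078, 871 and 883 CPM for Scnn1b and 546, 0 and 458 CPM for Scnn1g. The ratio at 60 min was 1.13 (0.93 to 1.36) for Scnn1a, 0.82 (0.71 to 0.94) for Scnn1b and 0.84 (0.69 to 1.02) for Scnn1g. Sgk1, an aldosterone-induced kinase gene, was at 428 and 322 CPM in the control and at 60 min, a ratio of 0.75 (0.60 to 0.95).

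Over all members, the summed levels of vasopressin signalling, potassium channel and sodium pump genes moved little. Avpr2 was at 336, 1017 and 338 CPM, and at 60 min its ratio was 1.01 (0.79 to 1.29). By set, the Avpr2 ratio was 1.39 (0.986 to 1.99) in S100g-high and 0.66 (0.45 to 0.97) in S100g-low cells. The vasopressin list had 8 of 10 genes compared, none past 2-fold, and a summed ratio of 0.972 (0.875 to 1.08). Kcnj1, encoding the secretory potassium channel ROMK, was at 917, 726 and 739 CPM, and 0 of 6 potassium channel genes passed 2-fold over all members. From the control to 60 min, Kcnj1 went from 816 to 840 CPM in S100g-high cells. In S100g-low cells it went from 1108 to 526 CPM. Whether the Avpr2 and Kcnj1 ratios differ between the sets was not tested. Kcnma1, the gene of the flow-activated channel, had no UMI in any member, nor had Aqp5, Adcy3 and Ptger3.

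The pump list had none of 5 past 2-fold and a summed ratio of 1.03 (0.993 to 1.08). Prostaglandin genes summed to 748 and 749 CPM, with none of 4 past 2-fold, and junction genes, keratins and collecting duct transcription factors had 0 of 7, 0 of 3 and 1 of 10 past 2-fold. That 1 gene was Elf3, an epithelial factor gene, at 110 and 44.5 CPM, a ratio of 0.41 (0.23 to 0.71), which became 0.79 with cells over the gene limit included. Of the 6 compared hyperosmotic response genes, Slc5a3, the inositol carrier gene, was at 35.6 and 72.9 CPM, a ratio of 2.05 (1.04 to 4.32).

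Of the connecting tubule genes none of 6 passed 2-fold, but 1 gene rested on few cells. Klk1 was at 7827 CPM in the control, 0 at 15 min and 14656 CPM at 60 min, a ratio of 1.87 (1.79 to 1.96). In the S100g-high cells, at least 50% of its UMIs were in 6 of 61 control cells and 5 of 80 cells at 60 min, with a highest count of 302 and 950. In thinned cells Klk1 was detected in 36.1% of control members and 25.4% of 60 min members, opposite to the sum, and with cells over the gene limit included the ratio was 0.70. S100g was at 24988, 22074 and 23498 CPM, and Calb1 at 4561, 6535 and 3776 CPM, ratios of 0.94 (0.91 to 0.97) and 0.83 (0.77 to 0.89).

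Signs of other cell types stood beside these ratios. Of the 10 proximal tubule genes compared, Napsa (3.05) and Gatm (2.10) passed 2-fold, and all 11 genes summed to 4139 CPM in the control library, 7552 at 15 min and 6880 at 60 min. Among them Kap, an androgen-regulated proximal tubule gene, was at 2423 and 4398 CPM, and 1 cell held 1144 of its 2172 UMIs at 60 min. Without the 3 control and 5 platform cells that had at least 20 Kap UMIs, the Kap ratio was 0.93 (0.79 to 1.09). Because the cells were removed on Kap itself, that Kap ratio supports nothing here. Fxyd2, the other pump regulator gene, had a ratio of 1.65 (1.47 to 1.85) and of 1.38 without the cells of at least 20 Kap UMIs.

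Leukocyte genes summed to 32 UMIs in the control and 165 at 60 min, a ratio of levels of 3.52 (2.40 to 5.31), with 6 of 8 detected and Ptprc, by the rule, and Cd3e at 0. Most of the leukocyte UMIs at 60 min were of Cd74. Stromal genes were at 0 and 166 CPM, with Col1a1 at 0 in both, and thick ascending limb genes at 56.4 and 180 CPM. Most of the stromal UMIs at 60 min were of Acta2. Endothelial genes were at 2.97 and 48.6 CPM. The leukocyte ratio was also above 1 in thick ascending limb (3.43), distal convoluted tubule (22.7), intercalated (3.99) and proximal tubule cells (2.39). In the same order of classes, the endothelial ratio was 15.2, 0.769, 7.72 and 6.07 and the stromal ratio 0.518, 0.048, 2.89 and 9.87. The rise of leukocyte genes was thus not particular to the Aqp2-positive cells. The part of these cell types in the 60 min ratios was not tested.

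The 12 genes whose ratio was furthest above 1 by the counting interval at 60 min were partly from single cells. Acta2, the smooth muscle actin gene, had 0 UMIs in the control and 78 at 60 min (at least 17.7-fold higher on a floor of 3 UMIs), in 4 cells, with 65.4% in 1. Tagln, Myl9 and Tpm2, also of contractile cells, had 1, 0 and 1 UMIs in the control and 49, 32 and 31 at 60 min. Gm13889 had 98.3% of its 58 UMIs and Igkc, an immunoglobulin gene, 87.0% of its 54 in 1 cell. Klf2 went from 3 to 47 UMIs with 51.1% in 1 cell (ratio 10.7, and 5.15 with cells over the gene limit included), and Hist1h2ap from 0 to 39 in 4 cells.

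Others of the 12 were spread over many cells. Gm10076 was at 77.2 and 381 CPM (ratio 4.93, 3.26 to 7.75), in 82 cells at 60 min. Usp50 was at 14.8 and 111 CPM (ratio 7.50, 3.03 to 24.0), in 45 cells, and its ratio was 3.79 with cells over the gene limit included. Gm10076 was also higher at 60 min in each comparison class, by 2.94 to 4.57 times. H2-Ab1, an MHC class II gene, was at 20.8 and 109 CPM, in 30 cells, a ratio of 5.26 that was 2.90 with those cells included.

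The 12 furthest below 1 included Aqp4 and 3 genes of the immediate early list. Junb went from 618 to 310 CPM (ratio 0.50, 0.40 to 0.62), Ier2 from 410 to 200 CPM (0.49, 0.37 to 0.64) and Zfp36 from 202 to 93.1 CPM (0.46, 0.31 to 0.68). Id3, encoding an inhibitor of transcription factors, went from 270 to 117 CPM, and Ddit3, encoding the stress-induced factor CHOP, from 62.4 to 18.2. Ier5l went from 148 to 48.6 CPM and Rasd1 from 428 to 243. Elf3, Eps15, Arl4d and 0610009B22Rik made up the rest. With cells over the gene limit included, the Id3 ratio turned from 0.43 to 1.45, and the ratio rose to 0.79 for Junb, 0.84 for Ier2, 0.88 for Zfp36 and 0.88 for Ddit3. Eps15, Arl4d and 0610009B22Rik were then at 0.80, 0.85 and 0.83, all short of 2-fold, and Ier5l and Rasd1 at 0.53 and 0.49.

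**Figure D4:**
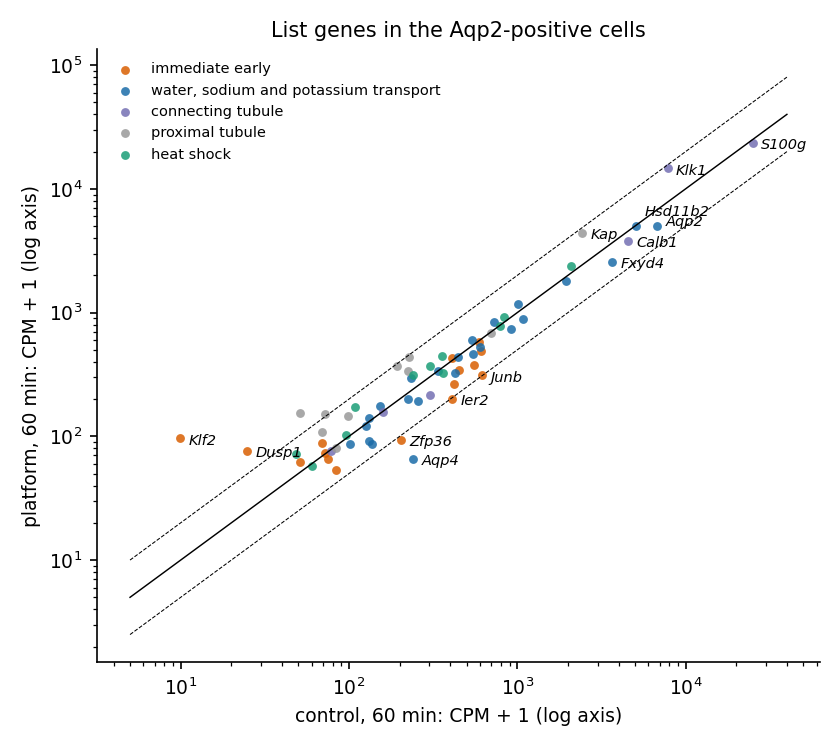
Level of each plotted gene in control members (x axis, CPM + 1, log) against 60 min members (y axis, CPM + 1, log), coloured by gene list, with lines for equal and 2-fold different levels. Most points lie between the 2-fold lines, with Aqp4, Ier2 and Zfp36 among the genes below them and Klf2 and Dusp1 among those above.

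Immediate early genes, whose RNA is made soon after a stimulus, were at 4647 CPM in the control library, 10311 at 15 min and 3620 at 60 min when all 19 were summed. At 60 min the summed ratio was 0.779 (0.728 to 0.834). Of 16 compared, Klf2 and Dusp1 were at least 2-fold higher and Ier2 and Zfp36 at most 0.5, with a median ratio of 0.84. Neither Ier2 nor Zfp36 was past 2-fold with cells over the gene limit included. Fos was at 407, 2033 and 425 CPM, a 60 min ratio of 1.05 (0.84 to 1.31) that became 2.05 with those cells.

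The cells behind this sum were few. The 5 highest cells held 46.4% of the immediate early UMIs of control members and 28.3% of those at 60 min. The median control cell had 14.5 per 10000 nuclear UMIs and the median 60 min cell 18.6, opposite to the sum. With cells over the gene limit included, the summed ratio was 1.25, and among those cells alone the level was 6368 CPM in the control and 8382 CPM at 60 min.

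The direction also depended on the set. In S100g-high cells the sum went from 2032 to 3014 CPM, a ratio of 1.48 (1.32 to 1.67), and the median cell from 9.61 to 13.2 per 10000. In S100g-low cells it went from 9974 to 4634 CPM, a ratio of 0.465 (0.424 to 0.509), and the median cell from 61.2 to 23.0 per 10000. Junb was at 162 and 290 CPM in S100g-high cells, and at 1555 and 343 CPM in S100g-low cells. The highest 5 of the 38 S100g-low control cells held 65.1% of that set's UMIs of the list.

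Without the 5 highest cells of each set in each library the ratios were 1.59 in S100g-high and 0.688 in S100g-low cells. Averaged over cells they were 1.41 and 0.603, and with cells over the gene limit 2.18 and 0.646. In both libraries the list was higher in S100g-low than in S100g-high cells. The other classes gave ratios of 1.11 (thick ascending limb), 0.97 (distal convoluted tubule), 1.01 (intercalated) and 2.13 (proximal tubule).

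**Figure D5:**
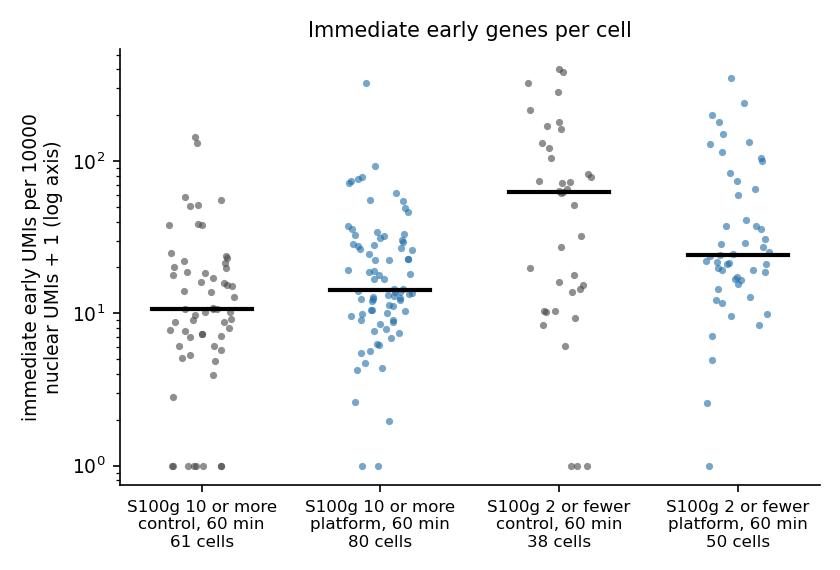
Immediate early UMIs per 10000 nuclear-encoded UMIs plus 1 (log axis) in each Aqp2-positive cell, by S100g set and 60 min library; points are cells and bars medians. The median is 9.61 in control and 13.2 in 60 min S100g-high cells, and 61.2 in control and 23.0 in 60 min S100g-low cells.

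Heat shock genes, which encode protein-folding chaperones, were at 5309 CPM in the control library, 6971 at 15 min and 5985 at 60 min. None of 11 compared passed 2-fold, the median ratio was 1.14 and the summed ratio 1.13 (1.06 to 1.20). Hspa1a, the inducible chaperone gene, was at 107, 581 and 170 CPM, and Hsp90ab1, a constitutive one, at 2090, 2759 and 2387 CPM. The summed ratio was 1.04 (0.97 to 1.12) in S100g-high and 1.34 (1.20 to 1.49) in S100g-low cells, where the median cell went from 43.8 to 60.3 per 10000.

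Of 11 tubule injury genes, 5 had no UMI, among them Havcr1, Krt20 and Vcam1. None of 3 compared passed 2-fold over all members. Clu was the furthest from 1, at 983 CPM in the control and 1529 at 60 min, a ratio of 1.56 (1.37 to 1.78), and 1.04 with cells over the gene limit. By set, the Clu ratio was 1.51 (1.31 to 1.73) in S100g-high and 4.78 (2.67 to 9.29) in S100g-low cells. The S100g-low ratio came from 13 control UMIs and 97 at 60 min. Whether the Clu ratios differ between the sets was not tested.

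The 7 members at 15 min carried little information on expression. They held 6886 nuclear UMIs, and 1045 of 2081 genes compared with the control were past 2-fold (50.2%), of which 335 were higher and 710 lower. Of the 2081, 655 had no UMI and 1542 fewer than 3 at 15 min, at a depth too low to read single genes. The 7 cells had 499, 667, 751, 765, 892, 1017 and 4306 UMIs. Their Aqp2 counts were 3, 3, 5, 3, 14, 10 and 20, and their Hsd11b2 counts 2, 5, 6, 4, 2, 4 and 24.

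The cell with 4306 UMIs was the only one with a barcode of its own. It held 152 UMIs of S100g and 44 of Calb1, and no UMI of Fos, Jun or Klk1. The other 6 held no UMI of S100g or Klk1 and 1 of Calb1 between them. They had every UMI of Fos at 15 min (2, 0, 1, 0, 5 and 6), so the 15 min immediate early ratio of 2.22 (1.72 to 2.82) rests on cells that shared barcodes. Without them it was 0.363 (0.118 to 0.849), from 5 UMIs in the 1 remaining cell. That cell was S100g-high, and S100g-high control cells were at 2032 CPM of the list against 4647 over all control members. A ratio against S100g-high control cells alone was not computed.

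In the mm10 (GRCm38) build with the GENCODE annotation, the whole genes from which the counts were taken lie at chr15:99579055-99584547 on the plus strand (Aqp2) and chr8:105518755-105523988 on the plus strand (Hsd11b2). The genes that divided or varied in these cells are at chrX:162961992-162964599 on the minus strand (S100g), chr7:44225360-44229618 on the plus strand (Klk1) and chr4:15881264-15908064 on the plus strand (Calb1). Counts are of whole genes, with no exon or UTR told apart.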

How the data were processed

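The authors aligned 10x v3 reads to mm10 with Cell Ranger 3.1.0 and joined the 3 kidney libraries with depth evened between them. The deposited UMI counts, whole numbers for each gene in each cell, cover 34034 kidney cells, the number the paper gives. They include cells beyond the paper's gene and mitochondrial limits. Libraries were assigned from the barcode suffix and the order of the deposited aggregation table. All further values were computed with Python 3.11.15, numpy 2.4.6, scipy 1.17.1 and pandas 2.3.3. The ratio step was tested on simulated counts drawn independently for each gene. Those counts hold no clumping of UMIs within cells, so that test does not cover it. A gene was compared with at least 30 UMIs over the members of both libraries and counted as past 2-fold at a ratio of at least 2 or at most 0.5. Named genes were list members, the 12 per direction with the interval bound farthest from 1, the 20 highest over other kept cells, the 8 highest over each neighbouring class and the 10 most variable; genes of the S100g sets were chosen after values were seen. Members and lists were chosen with earlier results of these data known. No doublet caller was run. Alternatives concerned scaling, filters, limits of the rule, shared barcodes and single cells. Intervals treat UMIs as independent. The mammary tumor libraries were used only to apply the rule there. Some items covered by the rule for named genes are not reported here.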

Additional observations from a re-analysis of the deposited data

Results flagged for a closer look

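The immediate early sum moved in opposite directions between the 60 min libraries in 2 sets of Aqp2-positive cells. Its ratio of platform to control was 1.48 in S100g-high cells and 0.465 in S100g-low cells, and whether they differ was not tested. The same ratio was 2.13 in proximal tubule, 1.11 in thick ascending limb, 0.97 in distal convoluted tubule and 1.01 in intercalated cells, again not tested. Over all members it was 0.779, but 1.25 with cells over the gene limit included, and the median member went from 14.5 to 18.6 per 10000 UMIs.

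In the mammary tumor, 7 of 4923 kept cells of the 60 min platform library passed the rule for Aqp2-positive cells, and 0 of 5111 control and 0 of 4210 cells at 15 min did, which allows shares of up to 0.0587% and 0.0713%. These cells held 28 Aqp2 UMIs, 3 to 6 each, at 7736 to 12608 UMIs per cell, and no UMI of Hsd11b2, Fxyd4, Aqp3, S100g or Kap. None of their barcodes was a kidney cell.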

How the results depend on the processing

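No paired analysis was possible because each condition had 1 library, which also left no replicate to leave out. The depth of 6886 nuclear UMIs limits all levels at 15 min. The cause of the changes below was not tested unless the alternative itself removes the cells or genes. The share at 15 min was 0.103 times the control with an Aqp2 limit of at least 5 per 10000 UMIs in place of 3 UMIs, 0.178 with proximal tubule cells left out and 0.00699 without shared barcodes. At 60 min it was 0.544 with proximal tubule cells left out. The count of genes past 2-fold at 15 min was 4440 and 128 with minimums of 10 and 100 UMIs and 1651 without shared barcodes. At 60 min it was 956 and 11 with those minimums, 312 by the mean over cells and 306 with no upper gene limit. Of the genes past 2-fold at 60 min, 64.3% were higher as reported, 54.2% with the minimum of 10, 71.8% scaled to all UMIs and 75.2% with no upper gene limit. The immediate early ratio at 15 min was 3.07 by the mean over cells, 1.46 without cells holding Calb1 and 0.363 without shared barcodes, from 5 UMIs in 1 cell. At 60 min it was 0.650 without cells holding Calb1 and 1.25 with no upper gene limit, and the heat shock ratio was 1.01 without cells holding Calb1. The Id3 ratio became 1.45 with no upper gene limit. Of the other values recomputed for single genes and cell sets, 331 stayed within and 40 moved beyond their counting interval. Alternatives on shared barcodes, the upper gene limit, Kap, the highest cells and the marker sum without Aqp2 were chosen after seeing the data.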
